A study of Mus musculus with 12 samples.

Results

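In 2 of 12 bulk RNA-seq libraries of mouse bone marrow progenitors, more than 10% of all counts fell in genes of the mitochondrial genome (chromosome MT). These 2 libraries, WT MET 2 and RH VEH 2, were chosen by that measured share, which was 33.3% for WT MET 2 and 40.8% for RH VEH 2. They were set against the 4 other libraries of the same round, always given in this order: WT VEH 3 had a share of 2.15%, WT MET 3 one of 2.29%, RH VEH 3 one of 2.36% and RH MET 3 one of 3.02%. The 6 remaining libraries, called round 1 here, ran from 1.57% to 4.32%, with a median of 2.59%. The closest library under the threshold was WT MET 1 at 4.32%, and the closest above it was WT MET 2 at 33.3%. Since the share chose the libraries, every difference between the 2 libraries and the others is a description and carries no test.

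All libraries came from Lin-cKit+ cells, the bone marrow cells that lack markers of mature lineages and carry the receptor tyrosine kinase Kit, sorted fresh and not cultured, per the labels. WT MET 2 came from the group of Dnmt3a+/+ mice given metformin for 1 month, and RH VEH 2 from the group of Dnmt3afl-R878H/+ mice given vehicle over the same time. The other libraries of round 2 held 1 from each group, namely wild type on vehicle (WT VEH), wild type on metformin (WT MET), mutant on vehicle (RH VEH) and mutant on metformin (RH MET), and round 1 held WT VEH 1 and 2, WT MET 1, RH VEH 1 and RH MET 1 and 2. Mice of both genotypes were on a C57BL/6 background and carried the Mx1-cre transgene, which is driven by an interferon-inducible promoter, so controls carry Cre too. The experiment was an in vivo competition with 2 animals per treatment group, and no label ties a library to an animal. Round 2 is the set of 6 columns found only in the 12-library table, and a round is no more than that; the labels give it no date, extraction or sequencing run. The 2 libraries differ from each other in both genotype and treatment, and each has 1 library of its own group in round 2, called its mate here (WT MET 3 and RH VEH 3).

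Mitochondria keep a small circular genome that encodes subunits of the respiratory chain, 2 ribosomal RNAs and the tRNAs needed to translate them, and both strands are transcribed as long precursors that are cut at the tRNAs. Copies of parts of this genome lie in the nuclear chromosomes, where they are annotated as pseudogenes. The Lin-cKit+ compartment holds few stem cells and many committed progenitors of the erythroid, megakaryocytic, granulocytic and monocytic lineages, so its bulk RNA is a mixture whose makeup shifts with the proportions of those cells.

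The sequences below show how closely a nuclear copy can match a mitochondrial gene, which bears on where a read of either is counted. They are 60-base stretches of the GENCODE M21 transcripts (mouse build GRCm38, which is mm10), written 5′ to 3′, with differing bases in capitals. Gm10925 (chr1:24613974-24614651, minus strand, pseudogene) matched mt-Atp6 (MT:7927-8607, plus strand), a subunit of the ATP synthase, over 678 aligned bases with 0 mismatches, and both stretches start at base 1 of mt-Atp6.
mt-Atp6: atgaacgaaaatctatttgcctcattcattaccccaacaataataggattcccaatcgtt
Gm10925: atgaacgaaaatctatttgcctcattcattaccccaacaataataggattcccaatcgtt
Gm13340 (chr2:22588103-22589647, minus strand, pseudogene) differed from mt-Co1 (MT:5328-6872, plus strand), the catalytic subunit of cytochrome c oxidase, at 37 of 1545 aligned bases, 3 of them in the stretch from base 39 of mt-Co1.
mt-Co1: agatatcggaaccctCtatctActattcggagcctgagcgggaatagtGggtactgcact
Gm13340: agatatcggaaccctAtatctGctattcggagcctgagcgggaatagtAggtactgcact

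The mitochondrial rows took 4492037 of 13487326 counts in WT MET 2 and 5453784 of 13359583 counts in RH VEH 2. The 4 other round 2 libraries had 17025259 to 21938003 counts in all, and round 1 had 16434004 to 19420425. Outside the MT rows, 8995289 counts were left for WT MET 2 and 7905799 for RH VEH 2, against 16635336 to 21275851 in the 4 libraries. At 7000000 counts outside MT drawn from each library, 17418 genes were expected to hold a count for WT MET 2 and 16601 for RH VEH 2, against 18922 to 19206 in the 4 libraries and 17989 to 18509 in round 1. Both libraries were therefore below all 10 others in depth and in genes detected at equal depth. All levels below are CPM (counts scaled to a common library size) over rows outside MT, scaled with TMM factors from those rows, so that the MT share does not enter them. On that scale 1 CPM stood for 9.28 counts for WT MET 2 and 8.07 for RH VEH 2, against 16.9 to 22.1 in the 4 libraries. The intervals given with ratios are exact, at 95%, and cover counting error only.

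**Figure D1:**
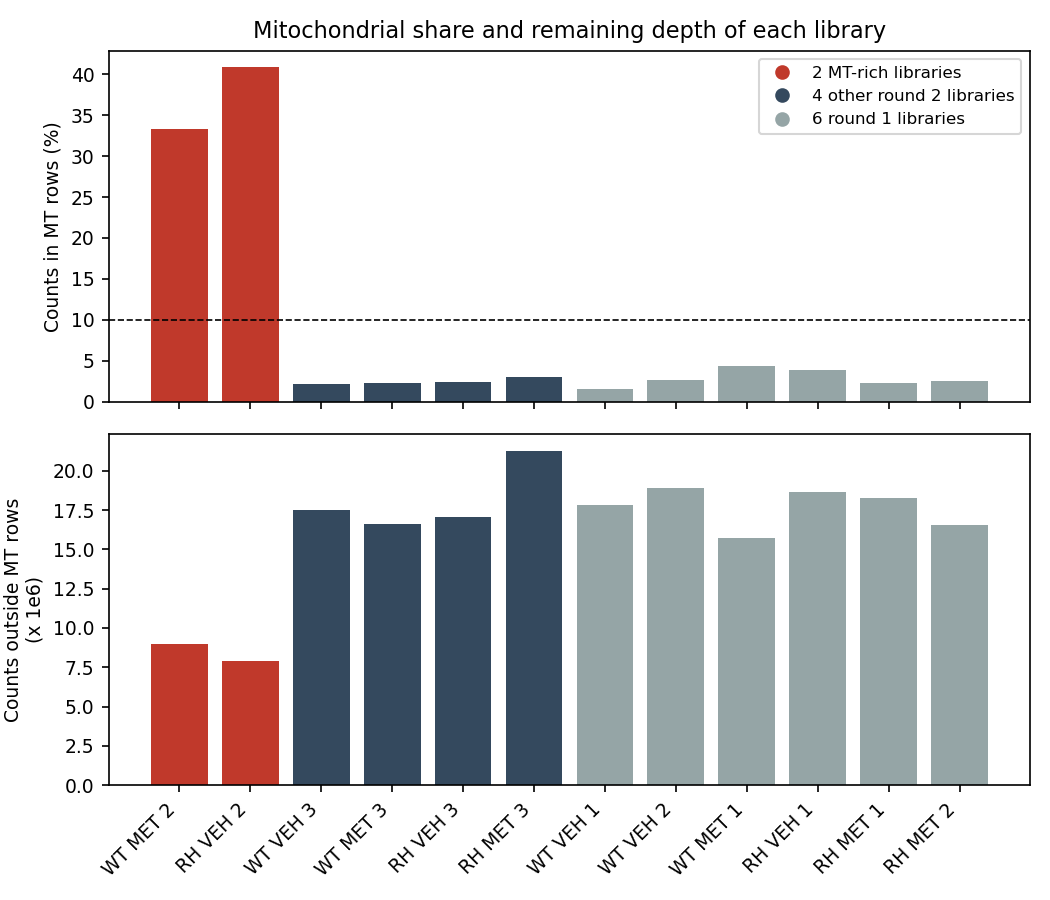
Bars give, for each of the 12 libraries, the percentage of counts in MT rows (top; the dashed line is the 10% threshold) and the counts left outside MT rows (bottom). WT MET 2 (33.3%) and RH VEH 2 (40.8%) stand above the line and have the fewest counts outside MT, while the other 10 libraries lie between 1.57% and 4.32%.

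Within the mitochondrial genome the makeup of the transcripts was much the same in all libraries, with a few rows apart. The share of MT counts in the 13 mRNA rows was 96.3% for WT MET 2 and 96.9% for RH VEH 2, against 95.4% to 96.2% in the 4 libraries and 96.1% to 97.1% in round 1. The 2 rRNA rows held 3.30% and 2.74%, against 3.48% to 4.06% in the 4 libraries and 2.47% to 3.34% in round 1, and the 22 tRNA rows held 0.386% and 0.383%, against 0.371% to 0.499%. mt-Co1 alone held 49.3% of MT counts in WT MET 2 and 49.7% for RH VEH 2, against 46.3% to 49.5% in the 4 libraries. mt-Cytb, the MT-encoded subunit of complex III, held 13.9% and 13.5%, against 14.6% to 15.1%, and mt-Nd1, a complex I subunit, held 11.5% and 13.1%, against 11.9% to 12.2%.

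On the same CPM scale, which counts rows outside MT only as the base, the 15 mRNA and rRNA rows averaged 11.5 to 96.3 times as much in the 2 libraries as in the 4, with a median of 24.1. The 9 rows with at least 1000 counts in WT VEH 3 kept to the narrower range of 17.3 (mt-Rnr2, the large rRNA) to 24.7 (mt-Nd1). mt-Nd6, the complex I subunit encoded on the other strand from the rest of the mRNAs, stood at 10178 and 13958 CPM in the 2 libraries, against 468, 508, 437 and 586 in the 4, a ratio of 24.1. The library kit does not mark strand, so reads of either strand cannot be told apart in this row. mt-Atp6 stood furthest out, at 3267 and 1771 CPM, against 20.2, 33.1, 22.9 and 28.4, a ratio of 125 for WT MET 2 and 67.7 for RH VEH 2. In round 1 mt-Atp6 stood at 198 CPM in RH VEH 1 and at 20.6 to 49.9 CPM elsewhere. mt-Co2, a cytochrome c oxidase subunit, had ratios of 44.9 and 36.5, and mt-Co3, another of its subunits, had 9.58 and 13.3. For mt-Co3 the 4 libraries held 18.5, 40.7, 21.2 and 129 CPM, with RH MET 3 the high one, which lowers these ratios. Round 1 held 19.1 to 43.1 CPM of mt-Co3. These 3 genes lie within the stretch that the nuclear copies on chromosome 1 match base for base, and each of them held under 1% of MT counts in all 6 libraries of round 2. The copies there also match mt-Nd4l over 294 bases and mt-Nd4 over 876 bases with 0 mismatches, and those rows had ratios of 25.6 and 24.1. mt-Nd3, matched over 345 bases with 1 mismatch, had a ratio of 17.9. The sources used here do not state how reads that map to several places were counted.

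**Figure D2:**
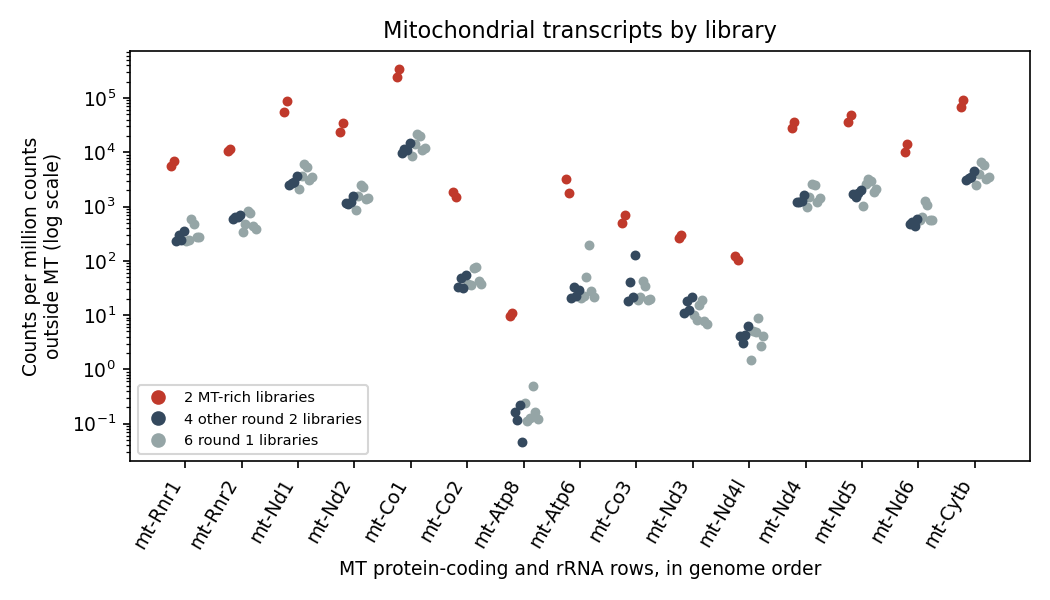
Each point is 1 library's level of a mitochondrial mRNA or rRNA row, in CPM over the counts outside MT on a log scale, with rows in genome order. WT MET 2 and RH VEH 2 lie above the other 10 libraries in every row, by a ratio to the mean of the 4 libraries of 11.5 (mt-Co3) to 96.3 (mt-Atp6). For mt-Co3, RH MET 3 stands high among the 4 libraries, at 129 CPM.

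Pseudogenes that copy the mitochondrial genome followed the same split. A search of transcripts with blastn (at least 90% identity over at least 80% of the pseudogene) found 13 such rows outside MT, of which 8 were measured, and those 8 averaged 20.1 to 82.2 times as much in the 2 libraries as in the 4. Summed over the 13 rows, they held 2887 CPM in WT MET 2 and 4374 CPM in RH VEH 2, against 76.9, 127, 82.8 and 114 CPM in the 4 libraries and 89.6 to 188 CPM in round 1. Gm10925 stood at 724 and 1548 CPM, against 23.2, 42.9, 24.8 and 32.7 CPM. Gm28661, which matched mt-Co2 over 681 bases with 0 mismatches, stood at 834 and 1339 CPM, against 22.8, 37.5, 24.5 and 34.9 CPM. Gm13340, the diverged copy of mt-Co1 shown above, stood at 170 and 279 CPM, against 2.67, 2.61, 2.74 and 2.90 CPM, the highest of the 8 ratios. Reads from mitochondria and from these pseudogenes cannot be told apart where the sequences are identical. Over all pseudogenes the share of counts outside MT was 1.53% for WT MET 2 and 1.71% for RH VEH 2, against 1.06% to 1.25% in the 4 libraries. These shares include the 13 copies above, so they do not show that other pseudogenes stood higher.

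Outside the mitochondrial genome the 2 libraries stood apart from the other 10 and were closer to each other than to any of them. Over 10336 genes with a mean of at least 5 CPM in round 2, the root-mean-square log2 difference between WT MET 2 and RH VEH 2 was 0.451. The distance of WT MET 2 was 0.595 to 0.708 to the 4 libraries and 0.518 to 0.656 to round 1, and that of RH VEH 2 was 0.634 to 0.776 and 0.536 to 0.665. Among themselves the 4 libraries lay 0.278 to 0.366 apart, and the 10 other libraries 0.261 to 0.542. Counting error is larger in the 2 shallower libraries, and its part in these distances was not tested.

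Against its mate, WT MET 2 had 292 genes at least 2-fold higher (2.83% of those measured) and 399 at least 2-fold lower (3.86%). RH VEH 2 had 450 higher (4.35%) and 841 lower (8.14%) than RH VEH 3. Past 2-fold the same way in both pairs, which share no library, were 152 higher genes (1.47%) and 237 lower genes (2.29%), a total of 389 genes, or 56.3% of those of the WT MET pair and 30.1% of those of the RH VEH pair. Only 14 genes (0.135%) passed 2-fold in opposite ways. Pairs of round 1 libraries of 1 group had 260 genes (WT VEH 1 and 2, 2.52%) and 68 genes (RH MET 1 and 2, 0.658%) past 2-fold. Across the 10336 genes the log2 differences of the 2 pairs had a Pearson r of 0.62 and a Spearman rho of 0.57, as a description over genes that are not independent, and 71.8% had the same sign. The 2 libraries together stood above all 4 other round 2 libraries for 2300 genes (22.3%) and below all 4 for 3364 genes (32.5%). Against all 10 other libraries, which lie in both rounds and all groups, they stood above for 1035 genes (10%) and below for 2033 genes (19.7%). With DESeq2 size factors in place of TMM the split was more even, at 2672 genes above and 2881 below all 4 libraries, and 185 higher and 206 lower past 2-fold in both pairs. The filter mean runs over the 2 libraries and the 4, so genes high in the 4 pass it more easily. With no filter the WT MET pair turned, at 1365 higher and 1197 lower, while the RH VEH pair had 1566 higher and 2107 lower. The TMM shares are the background for the gene groups that follow.

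**Figure D3:**
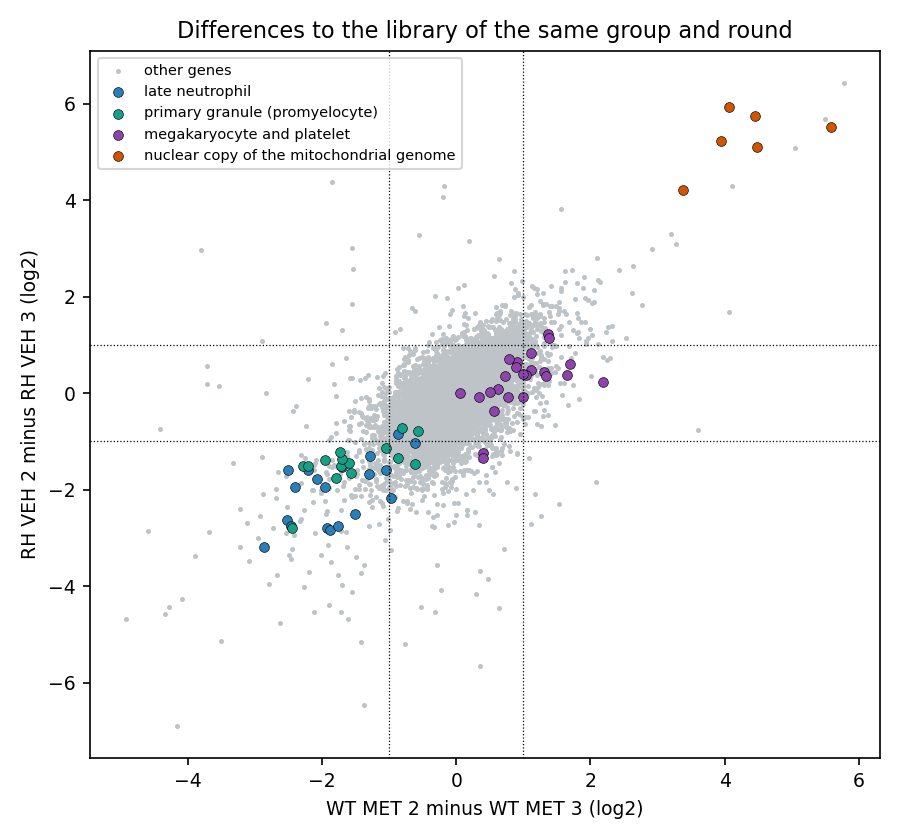
Each point is a gene, with its log2 difference between WT MET 2 and its mate on the horizontal axis and between RH VEH 2 and its mate on the vertical axis (dotted lines mark 2-fold). Late neutrophil and primary granule genes lie at the lower left, megakaryocyte genes mostly at the upper right, and nuclear copies of mitochondrial genes at the far upper right.

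Genes of maturing neutrophils stood lowest among the cell-type lists. Of 20 late neutrophil genes 19 were measured, and all 19 stood below all 4 libraries in both WT MET 2 and RH VEH 2, with 17 of them also below all of round 1. The median log2 difference to the median of the 4 libraries was −2.31 for WT MET 2 and −2.34 for RH VEH 2, against −0.09 and −0.08 over all genes, while the 4 libraries themselves ranged from −0.53 to 0.30 and round 1 from −1.43 to −0.34. Summed, the list held 839 CPM and 765 CPM, against 5773, 3661, 3318 and 5695 CPM in the 4 libraries and 1695, 2274 and 3801 CPM as the lowest, median and highest of round 1. In bulk RNA, fewer cells of a type and less RNA per cell cannot be told apart.

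Lactoferrin (Ltf, chr9:111019271-111042767), an iron-binding protein of secondary granules, stood at 97.2 CPM in WT MET 2 and 60.2 CPM in RH VEH 2. It stood at 733, 331, 409 and 636 CPM in the 4 other round 2 libraries, in the order given above, and at 219, 292 and 509 CPM as the lowest, median and highest of round 1. The groups did not overlap, and the ratio to the mate was 0.293 (0.273 to 0.315) in WT MET 2 and 0.147 (0.134 to 0.161) in RH VEH 2. Ngp, the neutrophilic granule protein, stood at 93.6 and 91.7 CPM, against 1089, 520, 621 and 1007 CPM in the 4 libraries and 303 to 747 CPM in round 1. Lcn2, the siderophore-binding lipocalin of secondary granules, stood at 21.2 and 27.4 CPM, against 272, 125, 173 and 270 CPM, and Chil3, a chitinase-like protein, at 18.5 and 17.7 CPM, against 240, 138, 164 and 276 CPM. For these 3 genes too, both libraries were below all 10 others, and the mean of the 4 was 8.74, 8.63 and 11.3 times that of the 2. S100a9, a subunit of the calcium-binding calprotectin, stood at 185 and 188 CPM, against 1340, 984, 729 and 1415 CPM, and Cd177, a neutrophil surface protein, at 10.5 and 5.95 CPM, against 125, 59.7, 69.7 and 102 CPM. Stfa1, another member of the list, had no count in either library, which allows up to 3 counts, or 0.323 CPM in WT MET 2 and 0.372 CPM in RH VEH 2. Its level in the other libraries is not given here, so this zero does not set the 2 libraries apart.

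Primary granule genes, which are made earlier, at the promyelocyte stage, stood lower as well. All 15 genes of the list were below all 4 libraries in both libraries, and 14 were below all 10, with medians of −1.63 for WT MET 2 and −1.56 for RH VEH 2, against −0.80 to −0.33 in round 1. Their sum was 1767 and 1881 CPM, against 5338, 4933, 4789 and 4897 CPM in the 4 libraries and 3323 to 4234 CPM in round 1. Myeloperoxidase (Mpo, chr11:87793581-87804413) stood at 572 CPM in WT MET 2 and 595 CPM in RH VEH 2, against 2398, 1990, 2010 and 1887 CPM in the 4 libraries and 1233, 1537 and 1769 CPM as the lowest, median and highest of round 1. Its ratio to the mate was 0.287 (0.279 to 0.296) and 0.296 (0.287 to 0.305), close to the same in both pairs. Elane, neutrophil elastase, stood at 103 and 149 CPM, against 504, 505, 425 and 556 CPM, and Ctsg, cathepsin G, at 84.4 and 99.5 CPM, against 333, 391, 285 and 363 CPM. Fcnb, a ficolin of maturing granulocytes, had the widest difference of the list, at 3.88 and 2.35 CPM, against 33.1, 23.4, 19.4 and 31.4 CPM.

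Monocyte genes and genes of multipotent progenitors lay on the same side. Of 16 measured monocyte genes, 14 were below all 4 libraries in both libraries and 10 below all 10, with medians of −1.33 and −1.78, against −0.76 to −0.40 in round 1. Lyz2, lysozyme of the myeloid lineage, stood at 78.5 and 67.9 CPM, against 644, 397, 428 and 625 CPM in the 4 libraries and 172 to 353 CPM in round 1. Ly6c2, the surface antigen used to mark monocytes, stood at 38.9 and 33.3 CPM, against 148, 135, 136 and 176 CPM, and F13a1, a coagulation factor subunit made by monocytes, at 17.9 and 19.9 CPM, against 125, 70.6, 95.6 and 85.8 CPM. All 10 measured multipotent progenitor genes were below all 4 libraries in both libraries, but only 5 were below all 10. Cd34, a surface sialomucin of progenitors, stood at 66.0 and 55.3 CPM, against 178, 148, 160 and 134 CPM in the 4 libraries and 65.7, 84.9 and 96.9 CPM as the lowest, median and highest of round 1, so that WT MET 2 lay just inside the range of round 1. Cd48, a surface receptor gained when stem cells become progenitors, stood at 19.7 and 15.9 CPM, against 47.0, 53.2, 56.2 and 45.7 CPM, and Flt3, the receptor of lymphoid-primed progenitors and dendritic cells, at 28.5 and 15.1 CPM, against 66.8, 43.5, 60.8 and 48.2 CPM. Cebpa, the transcription factor of the granulocyte and monocyte fate, stood at 41.5 and 36.3 CPM, against 105, 104, 85.5 and 102 CPM in the 4 libraries and 40.7 to 59.5 CPM in round 1.

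Other lists stood well below the 4 libraries and closer to round 1. Among 12 measured stromal and endothelial genes, 8 were below all 4 libraries in both libraries, but 1 was below all 10, and the summed level was 584 and 468 CPM, against 1292 to 1906 CPM in the 4 libraries and 618 to 977 CPM in round 1. Col1a2 (chr6:4504814-4541544), a chain of collagen type I, stood at 10.9 and 11.3 CPM, against 433, 344, 301 and 285 CPM in the 4 libraries, and at 9.22, 43.3 and 91.6 CPM as the lowest, median and highest of round 1. Col1a1, the other chain, stood at 19.3 and 17.1 CPM, against 502, 338, 339 and 280 CPM, with 13.8 to 134 CPM in round 1, and Sparc, a matrix glycoprotein, at 5.17 and 6.57 CPM, against 95.1, 83.6, 72.8 and 66.4 CPM, with 2.71 to 25.2 CPM in round 1. For these 3 genes the 4 libraries were the high ones, and the 2 libraries lay within round 1. Cxcl12, a chemokine at the head of the list, did not follow them. It stood at 20.05 and 14.2 CPM, against 18.3, 19.3, 9.39 and 12.9 CPM, with 3.37 to 15.9 CPM in round 1. Above all 4 libraries were 2 genes of the list in WT MET 2 and 0 in RH VEH 2. Lum and Pdgfra of this list had no count in either library, but their levels in the other libraries are not given here. Of 11 measured macrophage genes, 9 were below all 4 libraries and 2 below all 10, and the summed level was 197 and 170 CPM, against 415, 272, 539 and 312 CPM in the 4 libraries and 154 to 209 CPM in round 1. Axl, a receptor that macrophages use to take up dying cells, stood at 4.31 and 2.48 CPM, against 37.1, 13.6, 51.3 and 19.8 CPM, with 1.99 to 12 CPM in round 1. Among 7 measured eosinophil genes, 6 were below all 4 and 2 below all 10, and the sum of 210 and 252 CPM lay inside the 151 to 289 CPM of round 1. Epx, eosinophil peroxidase, stood at 22.1 and 18 CPM, against 77.5, 86.2, 104 and 59.3 CPM, with 22.2 to 39.2 CPM in round 1. Slfn14, a schlafen family member, was likewise low, at 1.83 and 1.86 CPM, against 11.6, 12.9, 11.6 and 20.4 CPM, but stood at 0.663 to 2.93 CPM in round 1. Among 14 measured mast cell and basophil genes, 8 were below all 4 and 4 below all 10, with medians of −0.63 and −0.62, below the −0.53 to −0.18 of round 1. The mast cell proteases Mcpt4, Tpsb2 and Tpsab1 had no count in either library. Their levels in the other libraries are not given here, so these zeros do not set the 2 libraries apart. Cpa3, carboxypeptidase A of mast cells and their progenitors, stood at 40.9 and 38.7 CPM, against 121, 167, 158 and 201 CPM and 61.0 to 96.5 CPM in round 1.

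Megakaryocyte and platelet genes lay on the other side. Of 30 genes 24 were measured, 16 were above all 4 libraries in both libraries and 0 below in both, and 8 were above all 10. Taken alone, WT MET 2 had 22 genes above and 0 below all 4, and RH VEH 2 had 16 above and 4 below. At least 2-fold from the mate were 10 genes higher and 0 lower in WT MET 2, and 2 higher and 2 lower in RH VEH 2. The median log2 difference was 0.92 for WT MET 2 and 0.50 for RH VEH 2, against −0.20 to 0.13 among the 4 libraries and −0.30 to 0.31 in round 1, and the summed level was 4182 and 3099 CPM, against 2008, 2104, 2305 and 2230 CPM and 1805, 2139 and 2797 CPM as the lowest, median and highest of round 1. Pf4 (chr5:90772435-90773383), platelet factor 4, stood at 588 CPM in WT MET 2 and 460 CPM in RH VEH 2, against 119, 229, 198 and 225 CPM in the 4 libraries and 170, 193 and 343 CPM as the lowest, median and highest of round 1. Its ratio to the mate was 2.57 (2.47 to 2.68) and 2.33 (2.22 to 2.44). Itga2b, the platelet integrin subunit that binds fibrinogen, stood at 853 and 646 CPM, against 258, 327, 290 and 301 CPM and 254 to 354 CPM in round 1. Ppbp, pro-platelet basic protein, stood at 149 and 109 CPM, against 30.7, 47.5, 84.3 and 49.4 CPM, but round 1 reached 136 CPM. Lat, an adaptor of T cell and platelet signalling that was listed with the T and NK cell genes, stood at 87.6 and 71.1 CPM, against 21.6, 36.5, 25.8 and 29.4 CPM and 25.4 to 38.6 CPM in round 1, while the T and NK cell list as a whole had medians of 0.20 for WT MET 2 and −0.36 for RH VEH 2.

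Stem cell genes lay on both sides. Of 13 measured, 6 were above all 4 libraries and 2 below, with medians of 0.59 for WT MET 2 and 0.13 for RH VEH 2. Mycn, a Myc family transcription factor, stood at 24.8 CPM in WT MET 2 and 20.2 CPM in RH VEH 2, against 6.22, 12, 8.21 and 13 CPM in the 4 libraries and 6.13 to 11.5 CPM in round 1. Mecom, the transcription factor at the head of the stem cell list, stood at 7.01 and 2.60 CPM, against 3.60, 3.80, 4.08 and 3.99 CPM, one library above and the other below. Txnip, which restrains thioredoxin and glucose uptake, stood at 151 and 120 CPM, against 263, 244, 215 and 191 CPM and 205 to 345 CPM in round 1.

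Erythroid progenitor genes, one of the most abundant lineage lists, were close to the 4 libraries. Genes of late erythroid cells leaned lower by their medians but not by their sum. The erythroid progenitor list had medians of −0.04 for WT MET 2 and 0.08 for RH VEH 2, with 6 of 17 genes above all 4 libraries and 2 below. Gata1, the erythroid and megakaryocytic transcription factor, stood at 310 and 354 CPM, against 217, 271, 240 and 268 CPM in the 4 libraries and 282 to 389 CPM in round 1. Gfi1b, its partner in those lineages, stood at 224 and 239 CPM, against 149, 152, 147 and 131 CPM, with 192 to 240 CPM in round 1. Aqp1, the water channel of red cells, stood at 1154 and 1356 CPM, against 1639, 2174, 1803 and 1932 CPM and 1692 to 2086 CPM in round 1. The haemoglobin and late erythroid list had medians of −0.39 and −0.28, below the −0.27 to 0.19 of the 4 libraries and inside the −0.41 to 0.22 of round 1, with 7 of 15 genes below all 4 libraries (32.5% over all genes), 0 above and 3 below all 10. Alas2, the erythroid enzyme that starts haem synthesis, stood at 166 and 154 CPM, against 202, 351, 235 and 276 CPM and 125 to 265 CPM in round 1. Bpgm, the red cell enzyme that makes bisphosphoglycerate, stood at 36.9 and 29.2 CPM, against 47.5, 71.7, 51.7 and 72.5 CPM and 25.5 to 49.0 CPM in round 1. Hba-a1, an alpha globin gene with a near-identical neighbour, stood at 3013 and 2656 CPM, against 1772, 3366, 1825 and 2220 CPM, so the groups overlapped. For Hba-a2, another alpha globin gene, they overlapped too, at 285 and 194 CPM, against 107, 182, 105 and 221 CPM. The summed level of the list, 8867 and 8984 CPM, lay inside the 8448 to 13462 CPM of the 4 libraries and the 7361 to 13590 CPM of round 1.

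**Figure D4:**
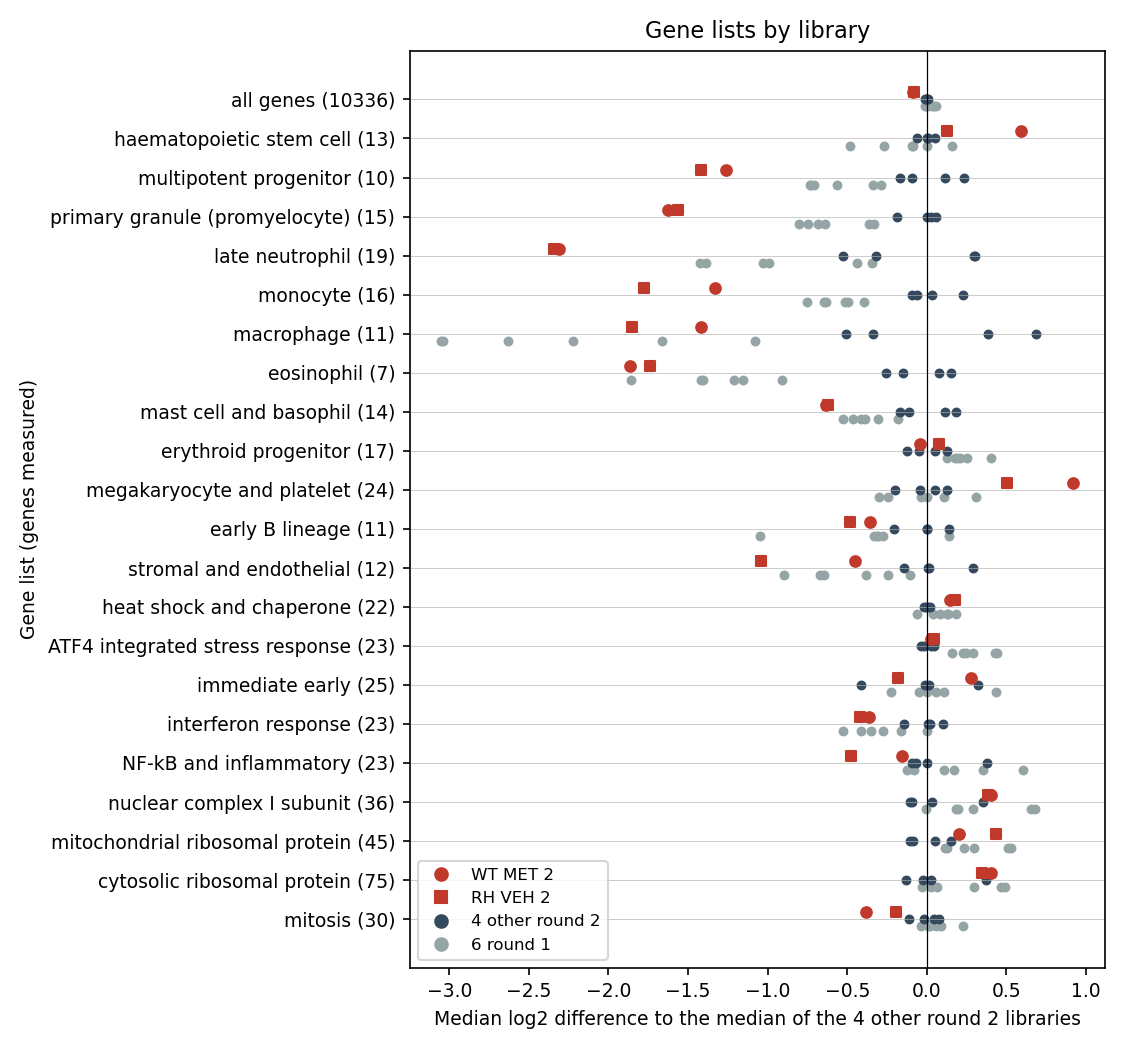
Points give, for each gene list and library, the median over the list's measured genes of the log2 difference to the median of the 4 other round 2 libraries. WT MET 2 and RH VEH 2 lie left of all other libraries for late neutrophil (−2.31 and −2.34), primary granule and monocyte genes and right of them for megakaryocyte genes, while for macrophage and eosinophil genes round 1 lies on the same side.

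The labelled sort was checked against its own markers. Kit stood at 135 and 140 CPM in the 2 libraries, against 226, 153, 210 and 179 CPM in the 4 libraries and 130 to 200 CPM in round 1, so it was present in both but below all 4. Of 11 genes whose products lineage antibodies commonly recognise 6 were measured, with 3 below all 4 libraries in both libraries and 2 below all 10. Itgam, the CD11b antigen of myeloid cells, stood at 6.04 and 2.73 CPM, against 29.0, 18.1, 17.7 and 28.1 CPM, and Ly6g, the neutrophil antigen, at 2.05 and 2.11 CPM, against 15.4, 9.43, 9.50 and 15.8 CPM, both below all 10 other libraries. A gene named Gm49368 overlaps 68.7% of the exon bases of Itgam on the same strand, so part of its reads may be counted elsewhere or not at all. Dnmt3a, the gene carrying the mutation, stood at 63.7 CPM in WT MET 2 and 45.1 CPM in RH VEH 2, against 64.7, 48.9, 66.1 and 58.8 CPM in the 4 libraries and 43.4 to 55.1 CPM in round 1. A heterozygous point mutation leaves the gene's count in place, so that count does not check the genotype.

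The medians of the stress lists lay closer to 0 than those of the myeloid lists. The heat shock and chaperone list had medians of 0.15 for WT MET 2 and 0.17 for RH VEH 2, against −0.02 to 0.02 among the 4 libraries and −0.06 to 0.19 in round 1, with 10 of 22 genes above all 4 libraries (22.3% over all genes), 2 below, and 6 above all 10. Hspa1a, an inducible Hsp70, stood at 533 and 548 CPM, against 356, 333, 290 and 233 CPM in the 4 libraries and 32.4, 146 and 198 CPM as the lowest, median and highest of round 1. Its neighbour Hspa1b, chosen here after its values were seen because 48.6% of the 100-base stretches of Hspa1a occur in another gene, stood at 1053 and 1002 CPM, against 813, 775, 686 and 535 CPM. Bag3, a co-chaperone of Hsp70, stood at 58.7 and 61.8 CPM, against 34.9, 23.5, 29.9 and 21.9 CPM and 33.1 to 44.7 CPM in round 1. Hsph1, a nucleotide exchange factor of Hsp70, stood at 447 and 395 CPM, against 275, 184, 279 and 188 CPM and 178 to 346 CPM in round 1. All 4 of these genes were above all 10 other libraries. Hspe1, the mitochondrial co-chaperonin, stood at 426 and 441 CPM, against 200, 270, 196 and 213 CPM, but round 1 reached 427 CPM, and its partner Hspd1 stood at 802 and 905 CPM, against 775, 752, 793 and 824 CPM. For Hspd1, 26.9% of the 100-base stretches also occur in another gene, so its count is uncertain.

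The integrated stress response, read from 23 measured targets and regulators around the transcription factor ATF4, had medians of 0.03 for WT MET 2 and 0.05 for RH VEH 2, below the 0.16 to 0.44 of round 1. Of these genes 8 were above all 4 libraries and 6 below (34.8% and 26.1%, against 22.3% and 32.5% over all genes). Against all 10 others 1 gene was above and 6 were below (4.35% and 26.1%, against 10% and 19.7% over all genes). Phgdh, the first enzyme of serine synthesis, chosen after its values were seen as a member on the low side, stood at 116 and 140.5 CPM, against 195, 200.5, 190 and 194 CPM in the 4 libraries and 155 to 208 CPM in round 1. Atf4 stood at 734 and 568 CPM, against 401, 400, 384 and 371 CPM in the 4 libraries and 458, 519 and 634 CPM as the lowest, median and highest of round 1. Ddit3, the transcription factor CHOP, stood at 77.1 and 66.0 CPM, against 32.4, 37.9, 29.9 and 29.9 CPM, and 52.6 to 81.6 CPM in round 1. Atf5, a regulator of the mitochondrial unfolded protein response, stood at 19.2 and 19.5 CPM, against 9.93, 13.1, 8.55 and 11.2 CPM and 8.67 to 17.6 CPM in round 1. The list of mitochondrial protein stress genes had medians of 0.07 and 0.22, within or below the 0.09 to 0.46 of round 1. The endoplasmic reticulum stress list had medians of −0.13 and −0.12, with 4 genes above and 8 below all 4 libraries (19.05% and 38.1%). The NRF2 and antioxidant list had −0.16 and −0.02, with 6 above and 6 below (25% each). Over all genes these shares were 22.3% and 32.5%.

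Immediate early genes, which respond within minutes to handling and growth signals, had medians of 0.28 for WT MET 2 and −0.18 for RH VEH 2, inside the range of the 4 libraries (−0.41 to 0.32). Of 25 measured, 4 genes were above all 4 and 3 below (16% and 12%, against 22.3% and 32.5% over all genes). Fos stood at 1310 and 1125 CPM, against 1478, 1548, 1494 and 1398 CPM in the 4 libraries and 706 to 1235 CPM in round 1. Jund, an AP-1 subunit with a basal level in many cells, stood at 1183 and 968 CPM, against 415, 302, 252 and 203 CPM in the 4 libraries and 352, 506 and 745 CPM as the lowest, median and highest of round 1. On the opposite strand Gm11175 overlaps 52.6% of the exon bases of Jund, and the library kit does not mark strand. Fosl2 stood at 20.4 and 7.56 CPM, against 69.0, 20.8, 38.4 and 21.5 CPM. Among 21 p53 target and apoptosis genes 7 were above all 4 libraries and 6 below (33.3% and 28.6%, against 22.3% and 32.5% over all genes). Bbc3, the cell death protein PUMA, stood at 68.3 and 49.9 CPM, against 35.3, 25.7, 24.2 and 16.8 CPM, with 42.4 to 78.0 CPM in round 1, and Cdkn1a, the cell cycle inhibitor p21, at 16.4 and 13 CPM, against 34.3, 13.6, 20.6 and 14.9 CPM.

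Inflammatory and glycolysis genes leaned lower, and interferon genes had medians below the 4 libraries but inside round 1. Of 23 measured NF-kB and inflammatory genes, 10 were below all 4 libraries (32.5% over all genes) and 1 above, with medians of −0.15 for WT MET 2 and −0.48 for RH VEH 2. Nfkb1, the p105 subunit precursor, stood at 97.1 and 76.3 CPM, against 152, 124, 152 and 137 CPM and 120 to 132 CPM in round 1. Il1b, interleukin 1 beta, stood at 6.36 and 4.71 CPM, against 26.1, 11.7, 17.3 and 26.6 CPM, and Ptgs2, cyclooxygenase 2, at 7.01 and 9.54 CPM, against 36.5, 22.7, 24.1 and 29.3 CPM. Both are made by myeloid cells, whose lists stood lower too, as given above, and the part of those cells in these values was not tested. Of 23 interferon response genes, 11 were below all 4 libraries and 4 below all 10 (17.4%, against 19.7% over all genes). Their medians of −0.36 and −0.42 lay inside the −0.53 to −0.002 of round 1. Rsad2, the antiviral protein viperin, named for its wide gap to the 4 libraries, stood at 11.2 and 11.6 CPM, against 45.1, 85.8, 51.2 and 85.7 CPM in the 4 libraries and 18.1, 24.5 and 33.2 CPM as the lowest, median and highest of round 1. Ifit1, at the head of that list, stood at 3.13 and 1.61 CPM, against 1.26, 3.20, 3.18 and 3.40 CPM. Of 27 hypoxia and glycolysis genes, 15 were below all 4 and 11 below all 10, among them Pgam1, a glycolytic mutase, at 40.7 and 46.1 CPM, against 134, 93.8, 127 and 101 CPM and 62.4 to 79.2 CPM in round 1. Of the 100-base stretches of Pgam1, 39.7% also occur in another gene, so its count is uncertain.

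Nuclear genes for the same respiratory chain lay far closer to the 4 libraries than the mitochondrial transcripts did. Of 36 nuclear complex I subunits, 22 were above all 4 libraries in both libraries and 5 above all 10, with medians of 0.40 for WT MET 2 and 0.38 for RH VEH 2, against −0.10 to 0.35 among the 4 libraries and 0.00 to 0.68 in round 1. Ndufb7, an accessory subunit, stood at 237 and 201 CPM, against 80.7, 113, 77.4 and 95.1 CPM in the 4 libraries and 98.2 to 185 CPM in round 1. For 40 subunits of complexes II to V the medians were 0.30 and 0.33, inside the 0.08 to 0.55 of round 1, with 17 above and 5 below all 4 libraries and 2 above and 5 below all 10. For 45 mitochondrial ribosomal proteins they were 0.20 and 0.43, against −0.10 to 0.15 in the 4 libraries and 0.12 to 0.53 in round 1. Of these, 20 were above and 5 below all 4. The 75 cytosolic ribosomal proteins had medians of 0.40 and 0.34, against −0.13 to 0.37 in the 4 and −0.03 to 0.49 in round 1. Among them 37 were above and 8 below all 4, while 8 (10.7%, against 10% over all genes) were above and 3 below all 10. Rpl38, of the large cytosolic subunit, stood at 907 and 756 CPM, against 229, 358, 209 and 231 CPM and 219 to 514 CPM in round 1. Its count is uncertain, since 31.8% of its 100-base stretches also occur in another gene. The 30 genes of mitochondrial transcription and RNA handling had medians of −0.06 and 0.10, with 8 above and 8 below all 4 libraries (26.7% each). The 23 genes of mitophagy and mitochondrial dynamics had 0.00 and 0.15, with 8 above and 8 below (34.8% each). Over all genes 22.3% were above and 32.5% below. Set beside the ratio of 24.1 for the median mitochondrial row, these nuclear lists differed by less than 1 log2 unit.

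Among cell cycle genes, mitosis genes leaned lower, with 17 of 30 below all 4 libraries, 13 below all 10 and medians of −0.38 and −0.19. Hmmr, a spindle-associated protein, stood at 70.2 and 91.2 CPM, against 141, 158, 187 and 188 CPM and 117 to 192 CPM in round 1, while Cdk1, the mitotic kinase, stood at 230 and 247 CPM, against 150, 204, 171 and 187 CPM. S phase genes had medians of −0.11 and 0.03. Nuclear noncoding RNAs leaned higher, with 7 of 11 above all 4 libraries and medians of 0.57 and 0.45. Kcnq1ot1, an imprinted RNA antisense to Kcnq1, stood at 23.3 and 18.7 CPM, against 5.62, 7.95, 5.03 and 12.2 CPM and 4.55 to 9.22 CPM in round 1, and reads of either strand cannot be told apart there. Malat1, at the head of the list, stood at 534 and 418 CPM, against 535, 516, 449 and 528 CPM. Over all long noncoding genes the share of counts outside MT was 1.18% in both libraries, against 0.864% to 0.926% in the 4 and 0.779% to 1.05% in round 1.

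By the gap alone, and leaving aside predicted genes and pseudogenes, among them the nuclear copies described above, the 15 genes with the widest gap above the 4 libraries all stood above all 10 others in both libraries. Wdr89 (chr12:75630596-75669537), a WD-repeat protein, stood at 467 CPM in WT MET 2 and 400 CPM in RH VEH 2, against 77.4, 109, 57.1 and 63.1 CPM in the 4 libraries and 75.0, 115 and 200 CPM as the lowest, median and highest of round 1. Nme1, a nucleoside diphosphate kinase, stood at 219 and 228 CPM, against 48.1, 62.4, 46.6 and 52.9 CPM and 57.3 to 143 CPM in round 1. Robo3, an axon guidance receptor, stood at 54.5 and 55.1 CPM, against 12.1, 12.8, 14.5 and 12.8 CPM and 7.46 to 16 CPM in round 1. Pax5, the B lineage transcription factor, stood at 32.6 and 22.2 CPM, against 6.11, 4.33, 5.92 and 3.49 CPM and 1.03 to 6.80 CPM in round 1. Of the 11 measured early B genes, Pax5 among them, 4 were below all 4 libraries (36.4%, against 32.5% over all genes). Above all 4 were 2 of the list (18.2%, against 22.3% over all genes). The medians of the list were −0.36 and −0.48, inside the −1.05 to 0.14 of round 1. Rplp2, a ribosomal stalk protein, stood at 3546 and 2983 CPM, against 939, 1197, 684 and 761 CPM, and Glrx5, a mitochondrial glutaredoxin of iron-sulfur cluster assembly, at 974 and 907 CPM, against 275, 368, 259 and 300 CPM. Plcl2, a phospholipase C-like protein, stood at 442 and 449 CPM, against 135, 146, 138 and 156 CPM, and Cdk11b, a kinase linked to splicing, at 253 and 260 CPM, against 90.3, 88.6, 82.5 and 92.6 CPM. The other 7 were Etfb, Rnf8, Snhg20, Myom1, Slc35d3, Trit1 and Mum1, with ratios of the 2 libraries to the 4 of 2.75 to 4.12. For Etfb, Rnf8, Rplp2 and Nme1, 65.2%, 27.2%, 17.2% and 10.4% of the 100-base stretches of the transcripts also occur in another gene, and Gm45233 with Mir7051 overlaps 58.2% of the exon bases of Etfb, so the counts of these 4 genes are uncertain. Of the 15 genes with the widest gap below the 4 libraries, 11 were below all 10, and the exceptions were Col1a1, Col1a2, Sparc and Slfn14. The 11 held the granulocyte, monocyte and interferon genes Ngp, Lcn2, Chil3, S100a9, Cd177, Fcnb, Lyz2 and Rsad2 described above, and Chil1, Clec4a2 and C3. C3, the central complement protein, stood at 6.58 and 10.2 CPM, against 106, 54.3, 84.5 and 88.4 CPM and 34.4 to 77.8 CPM in round 1.

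**Figure D5:**
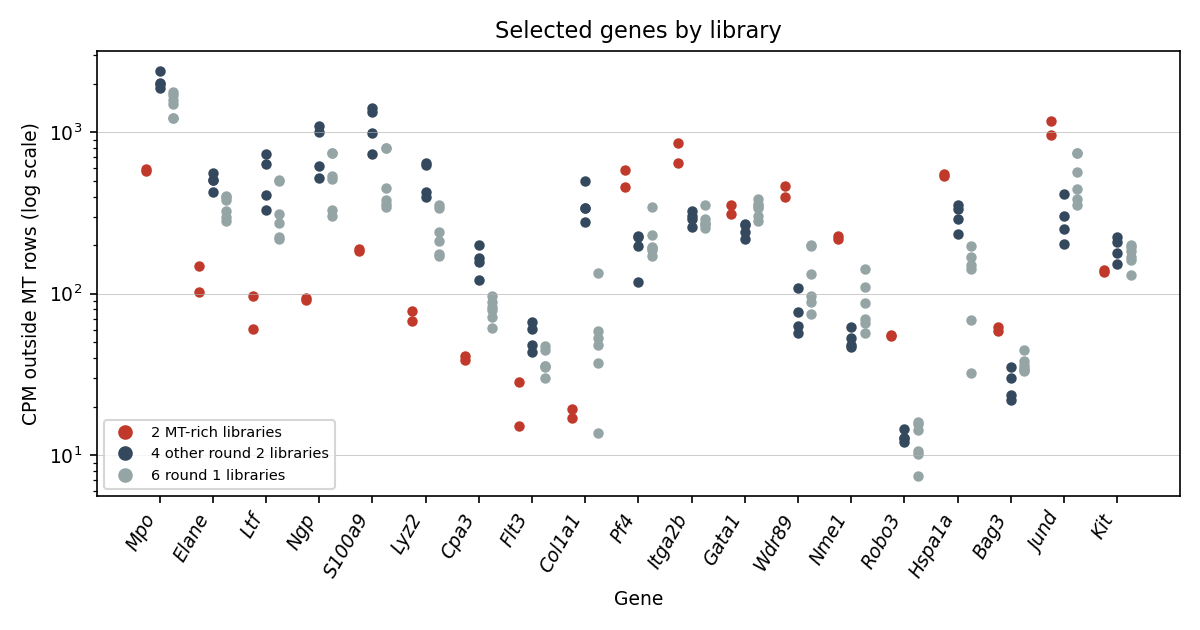
Points give the level of 19 genes in each of the 12 libraries, in CPM over rows outside MT on a log scale. The 2 libraries lie below the rest for Mpo, Elane, Ltf, Ngp, S100a9, Lyz2 and Cpa3, above the rest for Pf4, Itga2b, Wdr89, Nme1, Robo3, Hspa1a, Bag3 and Jund, and within round 1 for Col1a1.

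The 2 libraries did not agree on every gene. For 266 genes (2.57%) WT MET 2 was above all 4 libraries and RH VEH 2 below, and for 256 genes (2.48%) the reverse held. Plcg1, a phospholipase C, stood at 44.1 CPM in WT MET 2 and 19.9 CPM in RH VEH 2, against 27.4 to 30.6 CPM in the 4 libraries, and Slc2a1, the glucose transporter GLUT1, at 19.2 and 6.07 CPM, against 9.05 to 11.7 CPM. Trib2, a pseudokinase, stood at 19.1 CPM in WT MET 2 and 37.2 CPM in RH VEH 2, against 25 to 30.7 CPM, and Mlkl, the effector of necroptosis, at 13.4 and 29.2 CPM, against 20.7 to 22.7 CPM. The 2 libraries come from different genotypes and treatments, so a difference between them cannot be told apart from either.

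The spread of the study's own comparisons was lower without the 2 libraries. With all 12 libraries the biological coefficient of variation, the edgeR estimate of spread between libraries of a group beyond counting error, was 0.254, and without both libraries it was 0.179. It was 0.230 without WT MET 2 alone and 0.219 without RH VEH 2 alone. Without RH VEH 3 alone, the mate of RH VEH 2, it was 0.235, close to the value without WT MET 2. Leaving out any other single library gave 0.254 to 0.270. At a Benjamini-Hochberg adjusted p under 0.05 in the edgeR quasi-likelihood test with 12 libraries and 15714 genes, 0 genes (0%) were called for RH VEH against WT VEH, 1 (Slc15a2, 0.00636%) for RH MET against WT MET, 0 for RH MET against RH VEH and 0 for WT MET against WT VEH. Slc15a2 was called without RH VEH 1, RH VEH 2, RH VEH 3 or RH MET 1, and not in the other 8 of the 12 fits that left out 1 library, among them the one without WT MET 2, nor with no round term. At an unadjusted p under 0.05 the numbers were 316, 903, 405 and 632, and DESeq2 called 3, 26, 0 and 1. Without both libraries, over 15319 genes, edgeR called 3 (0.0196%), 1 (0.00653%), 1 (0.00653%) and 0 (0%). The 3 were Gapdh, Slc15a2 and Igkv1-122, and the 1 for RH MET against RH VEH was Gapdh. Gapdh stood at 21.6 and 19.0 CPM in WT MET 2 and RH VEH 2, against 15.1, 15.3, 77.3 and 15.9 CPM in the 4 libraries, with RH VEH 3 the high one, and 14.5 to 188 CPM in round 1. The WT MET and RH VEH groups then held 2 libraries each, and the p-values reflect variation among libraries, part of which may be technical.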

How the data were processed

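The authors deposited raw counts of reads (bulk RNA-seq) for 54532 gene IDs of the mouse in 12 libraries. The submitters' processing notes name STAR 2.5, HTSeq 0.6.1 and mm10; settings for strand and for reads with several positions are not given in the sources used here. Per the labels' protocols, the NEBNext Ultra RNA kit was used and reads were paired. A table of 8 columns held 6 of the 12 columns with equal counts (round 1); its other 2 columns match no sample and were not used. For 7 of the 12 columns the group is known and the sample is not, since column numbers differ from those of the labels.

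Library sizes and TMM factors (edgeR 4.0.16, R 4.3.3) came from rows outside the 37 MT rows. The deposited counts were turned into CPM and log2(CPM + 0.5), which understates changes of low genes, and genes with a mean of at least 5 CPM over the 6 round 2 libraries were kept. Each of the 2 libraries was set against its mate (2-fold) and the range of the 4 others. Comparisons between groups used edgeR's quasi-likelihood test (robust, filterByExpr, group and round terms) on all 12 libraries, tested on simulated data, with DESeq2 1.42.0 as an alternative. Named genes, at 10 CPM or more, were the 15 per direction with the widest gap to the 4 libraries (predicted genes, pseudogenes, histones and receptor segments left out), the 8 per direction that parted the 2 libraries, the first and the 3 furthest members of each list, and the sort markers; genes added beyond this are said to be so, some members below that level are given as list heads, and some genes the rule names are not reported here. The 2 libraries, the 38 gene lists and the rule were chosen with earlier results of these data known, so the lists are no independent support. Of the IDs, 54409 are in GENCODE M21, the source of sequences, which were compared with blastn 2.17.0. Depth outside MT ran from 7905799 to 21275851 counts.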

Additional observations from a re-analysis of the deposited data

How the results depend on the processing

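For the 38 lists in both libraries (76 medians), the sign turned for 0 to 4 medians under the other normalizations (no TMM factor, DESeq2 size factors, TMM on all rows), a pseudocount of 2 CPM and each of the 4 libraries left out, each of them no larger than 0.05 in size as reported. At a mean of at least 20 CPM, 31 of the lists could be computed and 0 of 62 medians turned. Without a filter on low genes the counts past 2-fold became 2562 (WT MET pair), 3673 (RH VEH pair) and 899 (both), with 8785 genes outside the range of the 4, and at a mean of at least 20 CPM they became 321, 638 and 201. With no filter more genes were higher than lower in the WT MET pair (1365 and 1197), unlike with the filter. Both pairs together still had 379 higher and 520 lower. Against all 10 other libraries 3068 genes were outside the range, and the medians became −1.30 (WT MET 2) and −1.29 (RH VEH 2) for primary granule genes and −1.87 and −1.78 for late neutrophil genes. With 1 of the 4 left out, primary granule genes in RH VEH 2 ranged from −1.72 (without WT VEH 3 or RH VEH 3) to −1.50. With no filter 4 medians turned and against all 10 libraries 9 did, among them the stem cell list in RH VEH 2 with no filter (−0.16) and, against all 10 libraries, mitochondrial protein stress (−0.0304) and mitophagy (−0.0085) in RH VEH 2 and p53 targets in WT MET 2 (−0.0024); the cause was not tested. Leaving out the nuclear copies of mitochondrial genes, an alternative chosen after seeing the data, gave 683, 1283 and 381 genes past 2-fold and 5656 outside the range. The biological coefficient of variation was 0.179 without both libraries and 0.219 to 0.270 with single libraries left out. In the order RH VEH against WT VEH, RH MET against WT MET, RH MET against RH VEH and WT MET against WT VEH, edgeR calls became 138, 344, 185 and 182 with no filter, 3, 26, 0 and 1 with DESeq2, 3, 1, 1 and 0 without both libraries, and 0 in each with no round term; with single libraries left out they ranged from 0 to 2, 0 to 2, 0 to 1 and 0 to 0. Without RH VEH 2 alone, Gapdh and Slc15a2 were called for RH VEH against WT VEH and Gapdh for RH MET against RH VEH. With about 8 to 9 counts per CPM in the 2 libraries, levels near 1 CPM there rest on few counts. No paired analysis was possible because the column numbers do not tie to the replicate numbers of the labels.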

Other observations

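Gene length and base composition moved with the differences. In the quintile of measured genes with the shortest deposited length (57 to 2388 bases) the median log2 difference to the 4 libraries was 0.07 (WT MET 2) and 0.12 (RH VEH 2), and 31.8% were above all 4 in both; in the longest quintile (from 7515 bases) the medians were −0.20 and −0.25, and 12.6% were above all 4 and 40% below. In the quintile with the highest GC content (55.15% to 73.68% of the longest transcript) the medians were 0.11 and 0.10, and in the lowest quintile (30.96% to 43.75%) −0.20 and −0.17. An ordinary pair, WT VEH 1 minus WT VEH 2 of round 1, had medians of 0.31 in the shortest and −0.33 in the longest quintile, while RH MET 1 minus RH MET 2 had −0.0032 and 0.01. The part of length and composition in the gene lists was not tested. Genes that share at least 10% of their 100-base stretches with another gene (861 of 10324 with a transcript) had medians of 0.0042 and 0.10, and 30.2% of them were above all 4 libraries in both.

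Other lists gave values on both sides. Dendritic cell genes had medians of −0.20 in WT MET 2 and −0.54 in RH VEH 2, with 7 of 14 below all 4 libraries and 0 above, and plasma cell genes had 0.10 and −0.13, with 0 of 6 outside the range in both libraries. Nfatc2ip, a protein that binds NFAT factors, stood at 42.9 CPM in WT MET 2 and 78.3 CPM in RH VEH 2, against 43.8 to 48.0 CPM in the 4 libraries.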
